A study of Rattus norvegicus with 12 samples.

Results

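The effect of TonEBP knockdown in cells that received no cytokine was described from 6 of the 12 libraries of an RNA-seq study of primary nucleus pulposus (NP) cells. The nucleus pulposus is the soft, gelatinous centre of the disc between neighbouring vertebrae. The cells were dissected from Wistar rat spines, grew out of explants, were kept in DMEM with serum and antibiotics, and were transduced by lentivirus. The first group, PLKO_CTR, carried the control shRNA vector PLKO and was left untreated. The second, shTon_CTR, carried an shRNA against TonEBP (shTon) and was left untreated as well. Each group held 3 libraries, and the sample titles number them as sets 1, 2 and 3. What a set stands for (one rat, one preparation of cells, one day of work) is not said in the labels, and neither is the number of shRNA sequences or the age of the rats. The p-values therefore reflect only how far these libraries differ, which may be technical. Genes were kept where the 6 libraries averaged 10 normalised reads or more, which left 12383 of the 13305 genes in the deposited table. The other 6 libraries carry the same vectors and received 50 ng/mL TNF-a, an inflammatory cytokine, for the last 24 h.

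TonEBP is the transcription factor encoded by Nfat5. In hypertonic surroundings it enters the nucleus, binds short DNA elements with a TGGAAA core and turns on transporters and enzymes that let cells take up or make organic osmolytes such as taurine, betaine, myo-inositol and sorbitol. NP cells live in a tissue that is hyperosmotic because its proteoglycans hold cations and water, and TonEBP is known there as a factor of osmotic adaptation. It is related to the NFAT and NF-kB families through its DNA-binding domain, and in other cells it takes part in inflammatory gene expression without an osmotic stimulus. The comparison asks what TonEBP does to the expression of NP cells before any cytokine is added.

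Values are gene read counts that the authors scaled by 1 factor per library, called normalised reads below. The fit was limma on log2(normalised reads + 1) with the set as a block, and a gene passed at a Benjamini-Hochberg adjusted p under 0.05. Libraries held 10703240 to 16861211 reads on listed genes in PLKO_CTR and 8230935 to 11497517 in shTon_CTR, and the shTon_CTR library was the shallower one in each of the 3 sets. The part of depth in the results was not tested beyond the scaling alternatives. Log2 ratios of shTon_CTR over PLKO_CTR had an SD across genes of 0.46, 0.44 and 0.72 in sets 1, 2 and 3, so set 3 was the most spread. In bulk RNA, fewer cells of a type and less RNA per cell cannot be told apart.

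In total 14 genes passed the threshold, 0.113% of the genes tested: 12 fell (0.0969%) and 2 rose (0.0162%). The genes that fell include 3 secreted cytokines (Cxcl2, Il11 and Csf3), the interleukin-1 receptor antagonist Il1rn, the chemokine scavenger Ackr4, the hormone Stc1, the ferritin light chain Ftl1 and the enzymes Uap1, Sacm1l and Cyp1b1. The other two are the small GTPase Rasl11b and a gene known only by its identifier. The 2 that rose are Pappa, a protease of the insulin-like growth factor (IGF) system, and Aldh1l2, a mitochondrial folate enzyme. The median log2 fold change of all tested genes was 0.01, with 6313 genes higher and 6070 lower by value. DESeq2 on the recovered reads, also with the set as a block, called 141 genes higher (1.06%) and 262 lower (1.97%), among them all 14. Within the 14, the groups of Il1rn and Sacm1l did not overlap; over all tested genes 5.13% were lower and 4.77% higher without overlap. With the set left out of the model no gene passed, and when set 2 was left out only Cxcl2, Il11, Csf3 and Stc1 of the 14 did. The other 10 kept folds of like size in that fit: the 8 that fell were at -1.35 to -1.06, Pappa at 1.33 and Aldh1l2 at 1.55, with adjusted p of 0.0611 to 0.183. In the text below, "passed" and "fell" or "rose" refer to limma, and DESeq2 calls are named as such. Counts of list members are to be read against the shares over all genes. Of the tested genes 20.6% were higher and 20.2% lower in all 3 sets, and DESeq2 called 1.06% higher and 1.97% lower.

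**Figure D1:**
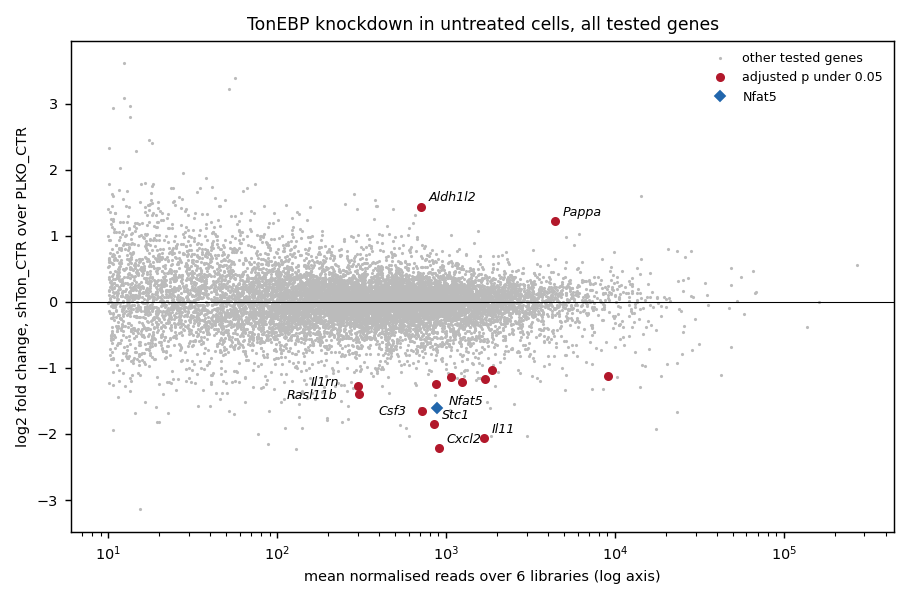
Log2 fold change of shTon_CTR over PLKO_CTR (vertical axis) against the mean normalised reads of the 6 libraries (horizontal log axis), 1 point per tested gene, n = 3 libraries a group. The 14 genes past the threshold are in red, 12 of them below 0 and 2 above, and the Nfat5 diamond at -1.61 lies among them without having passed.

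Of the 14 genes, 8 have a promoter in the RefSeq table used here (rat build GRCr8). The promoters of the 3 secreted inflammatory proteins among those 8 are printed because Cxcl2 and Il11, of this class, had the largest changes. That of Il6 is added, which is close to them in function and in its values. The choice was by class and not by size alone: Rasl11b (-1.39) fell more than Il1rn (-1.27) and is not printed. Each line gives the 250 bases before the annotated start, 5′ to 3′ on the gene's strand. Capitals mark the TonEBP core (TGGAAA or its reverse complement TTTCCA), the NF-kB motif, the AP-1 motif (TGANTCA) and the cyclic AMP response element (TGACGTCA), all searched on both strands. The build is not the one the authors used.
Cxcl2 promoter, chr14:17467256-17467505, minus strand: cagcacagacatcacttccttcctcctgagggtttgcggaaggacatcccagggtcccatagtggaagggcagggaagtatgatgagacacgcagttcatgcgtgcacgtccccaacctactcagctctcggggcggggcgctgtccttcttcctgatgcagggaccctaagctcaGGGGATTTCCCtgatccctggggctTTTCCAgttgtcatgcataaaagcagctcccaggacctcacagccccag
Il11 promoter, chr1:78098372-78098621, plus strand: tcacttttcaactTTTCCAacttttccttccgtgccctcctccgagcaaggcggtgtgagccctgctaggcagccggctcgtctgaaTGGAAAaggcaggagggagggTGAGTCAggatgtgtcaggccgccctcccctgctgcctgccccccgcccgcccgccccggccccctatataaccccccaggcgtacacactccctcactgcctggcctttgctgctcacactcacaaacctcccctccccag
Il1rn promoter, chr3:27520072-27520321, plus strand: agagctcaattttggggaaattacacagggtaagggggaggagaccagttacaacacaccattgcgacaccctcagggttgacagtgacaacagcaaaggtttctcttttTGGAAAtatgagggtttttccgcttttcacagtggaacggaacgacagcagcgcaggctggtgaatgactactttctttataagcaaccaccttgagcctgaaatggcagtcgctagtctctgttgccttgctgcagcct
Il6 promoter, chr4:5894576-5894825, minus strand: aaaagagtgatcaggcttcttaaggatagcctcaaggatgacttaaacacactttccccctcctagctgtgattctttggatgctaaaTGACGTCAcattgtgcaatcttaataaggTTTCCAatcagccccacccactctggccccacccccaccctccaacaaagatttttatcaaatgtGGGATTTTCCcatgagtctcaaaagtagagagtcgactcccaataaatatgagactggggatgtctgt
The TonEBP core stands 49 to 44 bases before the start in Cxcl2, beside an NF-kB match at 74 to 64. Il11 holds the core at 237 to 232 and at 163 to 158 and an AP-1 match at 142 to 136. Il1rn holds 1 core, at 140 to 135. In Il6 the core is at 133 to 128, with a cyclic AMP response element at 162 to 155 and an NF-kB match at 68 to 59. Matches of different motifs do not overlap in these windows. The core was found in 4 of the 8 promoters of genes past the threshold (Ackr4, Cxcl2, Il11 and Il1rn) and in 14.1% of the 8856 promoters of tested genes. Those of Cyp1b1, Rasl11b, Sacm1l and Uap1 lack it, while each printed promoter holds it, so the printed ones do not stand for all 8. The NF-kB motif was in 1 of the 8 against 8.53%, and AP-1 in 1 of the 8 against 4.39%. A match describes letters, not a bound site, and 8 promoters are few.

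Nfat5 itself was read first, since it checks the labels. Its normalised reads were 721, 1435 and 1915 in PLKO_CTR sets 1, 2 and 3 and 479.7, 479 and 303 in shTon_CTR. Every shTon_CTR library was below every PLKO_CTR library, but the depth of the knockdown differed among sets, with log2 ratios of -0.59, -1.58 and -2.66. The level in PLKO_CTR rose from set 1 to set 3. In shTon_CTR it was alike in sets 1 and 2 and lower in set 3, so both groups contributed to the spread of the ratios. The log2 fold change was -1.61 (SE 0.33, n = 3 a group), with an adjusted p of 0.0963 in limma, so Nfat5 did not pass there. It passed in DESeq2 (log2 fold change -1.60, adjusted p = 5.56e-05). When set 1 was left out, limma gave -2.12 and Nfat5 passed (adjusted p = 0.0405). It passed when set 3 was left out as well (-1.08, adjusted p = 0.00744) but not when set 2 was (-1.62, adjusted p = 0.211).

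Among 13 tested genes of osmotic adaptation and other reported TonEBP targets, Nfat5 included, 4 were higher and 5 lower in all 3 sets and none passed. Over all tested genes those shares were 20.6% and 20.2%. Sgk1, a kinase induced by salt and cell volume, was at 739.5, 975 and 374 normalised reads in PLKO_CTR and 398, 741 and 184 in shTon_CTR (log2 fold change -0.77). The taurine transporter Slc6a6 was at 1027, 1629.5 and 852 against 862, 1049 and 553 (-0.50). Both were lower in each set without passing in limma, and Sgk1 was also called lower by DESeq2. The creatine transporter Slc6a8 was at 405, 473 and 522 in PLKO_CTR and at 518, 666 and 1741 in shTon_CTR, higher in each set (0.86) and called higher by DESeq2. Aldose reductase (Akr1b1), which makes sorbitol, had a log2 fold change of -0.29 (SE 0.19) with mixed directions. The list as a whole had a median of -0.29, and its median per set was 0.09, -0.08 and -0.41. When set 3 was left out the median was -0.00.

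**Figure D2:**
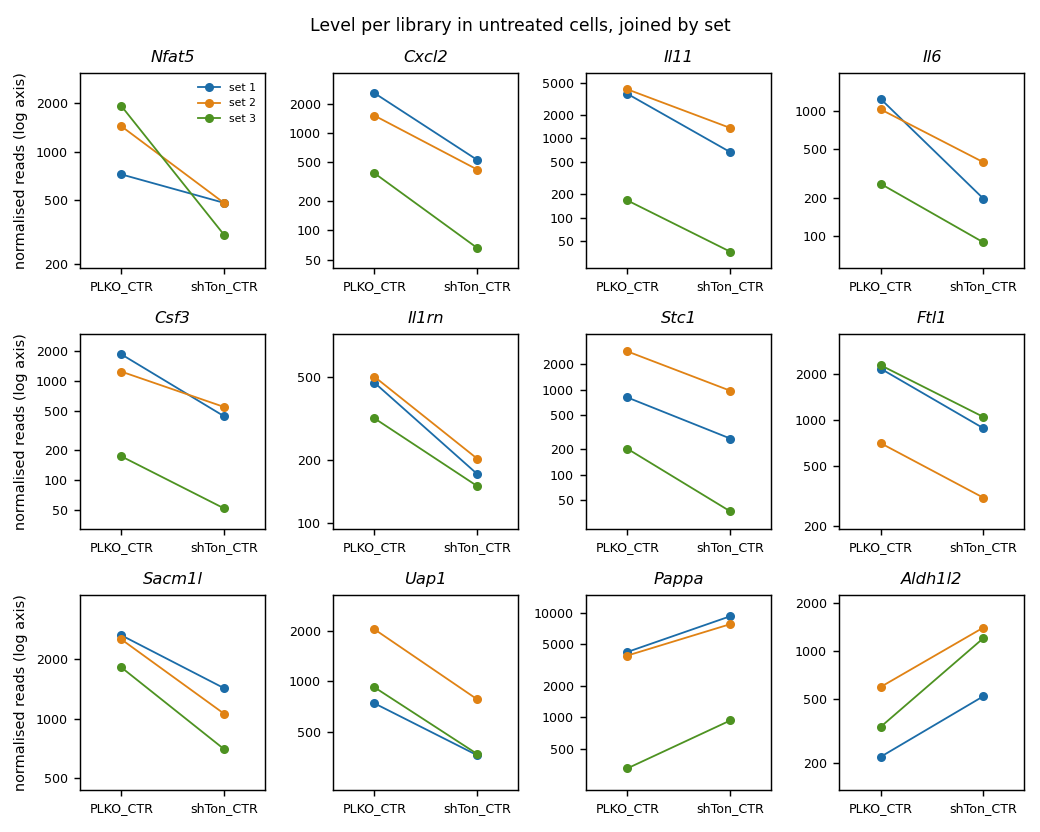
Normalised reads (log axis, a range of its own in each panel) of 12 genes in the 6 untreated libraries, with a line joining the PLKO_CTR and shTon_CTR library of the same set. The lines of the 10 genes from Nfat5 to Uap1 all go down and those of Pappa and Aldh1l2 go up, while the starting level differs between sets, as for Il11 (164 in set 3 against 4168 in set 2). Nfat5 and Il6 did not pass the threshold.

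Among the genes that passed, the largest falls were those of the secreted inflammatory proteins Cxcl2 and Il11. Cxcl2, a chemokine that attracts neutrophils, was at 2564, 1506 and 386 normalised reads in PLKO_CTR and at 528, 421 and 65.8 in shTon_CTR. It had the smallest adjusted p of all genes and fell 4.65-fold (log2 fold change -2.22, SE 0.16, adjusted p = 0.0197 in limma). Levels overlapped between groups because the sets start from different levels, but within each set shTon_CTR was lower. All 4 tested chemokines of this neutrophil-attracting CXC class were lower in each of the 3 sets. Cxcl1 was at 30090.1, 40279 and 20858 against 17741, 22080.3 and 9487 (-0.92), and Cxcl3 was at 2053, 1213 and 719.8 against 1275, 715 and 209.9 (-1.07). Neither passed in limma (adjusted p = 0.0865 and 0.0933), and DESeq2 called both lower. Cxcl6 had a log2 fold change of -1.11 (SE 0.34) and passed in neither. Cxcl1, Cxcl2 and Cxcl3 are related in sequence, so their values are uncertain where reads were shared. The handling of such reads was not given in the sources used here.

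Of 12 tested CC and other chemokines, which attract monocytes and lymphocytes, 7 were lower and 0 higher in all 3 sets, and none passed in limma. Their median log2 fold change was -1.09, and DESeq2 called 4 of them lower. Over all genes DESeq2 called 1.97% lower, and 20.2% of tested genes were lower in all 3 sets. Ccl20, which attracts cells with the receptor CCR6, was at 2122, 1227 and 253 normalised reads in PLKO_CTR and 823, 673 and 63.1 in shTon_CTR (-1.41, SE 0.21). Ccl7, which attracts monocytes, was at 16104, 26759.5 and 12917 against 6740.5, 16959.9 and 6654 (-0.96). Cxcl10, an interferon-induced chemokine, was at 2445, 102 and 405 against 584, 61.5 and 39.8 (-2.03, SE 0.42). The monocyte chemokine Ccl2 had a log2 fold change of -0.63 and was lower in each set. Cxcl12, a largely homeostatic chemokine, had mixed directions, with a level of 2322 in shTon_CTR set 3 against 20167 in PLKO_CTR set 3. Ackr4 is an atypical receptor that removes CCL19, CCL21 and CCL25 without signalling. It was at 903, 2386 and 1079 in PLKO_CTR and at 392, 1124 and 503 in shTon_CTR, and fell in almost the same proportion in each set (log2 fold change -1.13, SE 0.11, adjusted p = 0.0394 in limma).

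Il11, a cytokine of the interleukin-6 family that acts through gp130, was at 3655, 4168 and 164 normalised reads in PLKO_CTR and at 671, 1356 and 37.0 in shTon_CTR. It fell by 2.06 on the log2 scale (SE 0.17, adjusted p = 0.0259 in limma). Set 3 began at a level far below the other two and fell in a like proportion. Il6 was at 1249.7, 1029.6 and 262 against 199, 389 and 89.2 (log2 fold change -1.86, SE 0.24), lower in each set, with an adjusted p of 0.0559 in limma and a call in DESeq2. Of 13 tested family members and receptors, 4 were lower and 2 higher in all 3 sets, against 20.2% and 20.6% of all tested genes. The ligand Lif was among the lower ones (-0.78), and the receptor chain Il6r among the higher ones, at 124, 133 and 191 in PLKO_CTR and 204, 199.7 and 263 in shTon_CTR (0.59). The groups of Il6r did not overlap, though it passed in neither test. The shared signalling chain gp130 (Il6st) had mixed directions.

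Csf3, the growth factor of neutrophils also called G-CSF, was at 1854, 1243 and 174 normalised reads in PLKO_CTR and at 441, 548 and 52.1 in shTon_CTR. It fell by 1.66 on the log2 scale (SE 0.18, adjusted p = 0.0394 in limma). Kitlg, the ligand of KIT, was lower in each set (-0.56, SE 0.12, adjusted p = 0.0977 in limma). Csf1, the macrophage growth factor, had a log2 fold change of 0.13 (SE 0.18) with mixed directions. Within the interleukin-1 family the one gene that passed is an inhibitor: Il1rn, the antagonist that blocks the receptor, was at 467, 499 and 316 in PLKO_CTR and at 171, 202 and 149.5 in shTon_CTR. Its groups did not overlap, and it fell by 1.27 on the log2 scale (SE 0.15, adjusted p = 0.0438 in limma). The signalling receptor Il1r1 was also lower in each set (-0.61, SE 0.14) without passing, and the alarmin Il33 had a log2 fold change of -0.01 (SE 0.15). Of the 9 tested family members 3 were lower and 0 higher in all 3 sets, against 20.2% and 20.6% of all tested genes. The median of the 9 was -0.01, or -0.34 when set 3 was left out.

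Enzymes that make lipid and gas mediators had 7 of 15 tested members lower and 0 higher in all 3 sets, and none passed in limma. Ptges, the inducible prostaglandin E synthase, was at 2622, 3942 and 1269 normalised reads in PLKO_CTR and at 774, 2067 and 294 in shTon_CTR (log2 fold change -1.60, SE 0.21, adjusted p = 0.0574 in limma). The inducible nitric oxide synthase Nos2 was at 37.7, 92.3 and 113 against 24.7, 28.9 and 16.5 (-1.65, SE 0.40), with groups that did not overlap, and DESeq2 called both genes lower. The secreted phospholipase Pla2g2a was at 3891, 8200.0 and 858 against 2816, 2374 and 59.0 (-2.03, SE 0.52), a value to which set 3 contributed the most (-1.13 when it was left out). Cyclooxygenase-2 (Ptgs2), which acts upstream of Ptges, had mixed directions: 11090.1, 8362 and 2276 in PLKO_CTR against 4171, 6684 and 3406 in shTon_CTR (-0.38, SE 0.32). The complement protease C1s was at 17078, 34331 and 31437 against 9538, 9374 and 3746 (-1.93, SE 0.36, adjusted p = 0.0882 in limma), with no overlap between groups. Complement C3, the central component of that cascade, had mixed directions (-0.68, SE 0.33).

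NF-kB factors and innate receptors act upstream of many of these genes. Of 19 tested NF-kB subunits and feedback inhibitors 6 were lower and 1 higher in all 3 sets. Over all tested genes those shares were 20.2% and 20.6%. The median log2 fold change of these 19 was 0.01. The subunit Nfkb1 was at 3459, 3218 and 2944 normalised reads in PLKO_CTR and 2851, 2440.2 and 1878 in shTon_CTR (-0.44, SE 0.13). The 2 members called lower by DESeq2 were Zc3h12a, an RNase that degrades cytokine messages (-0.62), and Nfkbiz, a nuclear co-activator of Il6 and other secondary genes (-0.76). Of 19 tested pattern-recognition and cytokine receptors and their kinases, 9 were lower and 4 higher in all 3 sets. Tlr2, the receptor of bacterial lipoproteins, was at 3698, 6758 and 11593 against 2099, 3787 and 2292 (-1.33, SE 0.29). Irak1, a kinase that acts downstream of such receptors, was at 1811, 1925 and 1870.2 against 1337, 1110.2 and 631 (-0.93, SE 0.21), and its groups did not overlap. Neither passed in limma (adjusted p = 0.102 and 0.105), and DESeq2 called both lower. Tnfrsf1b, a TNF-a receptor, went the other way (0.38, SE 0.13), as did the lipopolysaccharide co-receptor Cd14 (0.58, SE 0.15), each higher in 3 of 3 sets without passing. Of 9 tested leukocyte adhesion and early NF-kB target genes 6 were lower and 0 higher in all 3 sets. Among them the adhesion molecule Icam1 was at 3935, 4831 and 6176 against 3001, 3903 and 3139.8 (-0.56, SE 0.16).

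Genes that respond to ERK signalling were in part lower too. Of 17 tested ERK feedback genes and ligands of the EGF receptor, 9 were lower and 0 higher in all 3 sets, with a median log2 fold change of -0.54, and none passed in limma. Dusp6, the phosphatase that switches ERK off and is induced by it, was at 2478, 2040.1 and 1915 normalised reads in PLKO_CTR and 1287, 1351 and 754 in shTon_CTR, with no overlap (-0.96, SE 0.16, adjusted p = 0.0841 in limma). Epiregulin (Ereg), a ligand of the EGF receptor, was at 1862, 466 and 472 against 612, 345 and 151 (-1.23, SE 0.24). The transcription factor Etv5 was at 972, 852 and 579.6 against 778, 423 and 211 (-0.93, SE 0.21). DESeq2 called these 3 genes and Dusp1 lower. Rasl11b, a small GTPase of the Ras family, was at 443, 759.9 and 149 against 144, 271 and 70.0, and fell by 1.39 on the log2 scale (SE 0.17, adjusted p = 0.0467 in limma).

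**Figure D3:**
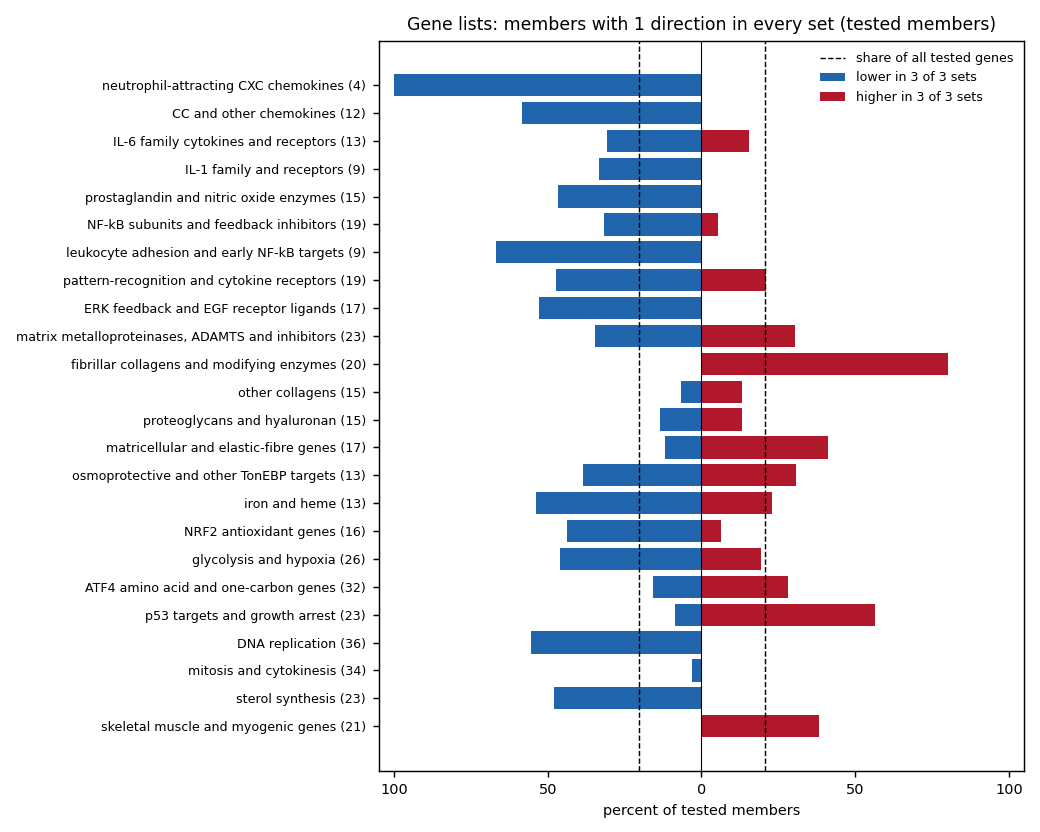
Percent of the tested members of 24 gene lists (number tested in brackets) that were lower (blue, to the left) or higher (red, to the right) in shTon_CTR in all 3 sets, regardless of size or test. Dashed lines mark the shares over all tested genes, 20.2% lower and 20.6% higher; all 4 CXC chemokines were lower and 16 of 20 fibrillar collagen genes higher.

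The collagen genes stood on the other side. Of 20 tested fibrillar collagens and collagen-modifying enzymes 16 were higher and 0 lower in all 3 sets, against 20.6% and 20.2% of all tested genes, and their median log2 fold change was 0.63. The median was alike in the 3 sets, at 0.47, 0.44 and 0.57. None passed in limma, where 13 were higher at an unadjusted p under 0.05 (7.74% of all tested genes were), and DESeq2 called 10 higher and 0 lower. The collagen III gene Col3a1 was at 17674, 22554 and 2200.0 normalised reads in PLKO_CTR and 37798, 40346 and 3082 in shTon_CTR (0.81, SE 0.17, adjusted p = 0.0973 in limma). Col1a1, a chain of collagen I, was at 8058, 48982 and 12422 against 18861, 57821 and 22074 (0.77, SE 0.22). Col5a1, a chain of the collagen V that seeds fibrils, was at 5594, 10728 and 5913 against 9205, 14802 and 12595 (0.76, SE 0.16). P4ha2, a prolyl hydroxylase that stabilises the triple helix, was at 1712, 3000.4 and 2414 against 2613, 4981 and 4897 (0.79, SE 0.13), and Loxl2, which cross-links fibrils, at 1351, 2323 and 1192 against 1859.6, 3704 and 2365 (0.71, SE 0.14). All 5 were higher in each set and were called by DESeq2. The other collagens, of basement membranes and of fibril surfaces, had 2 of 15 higher and 1 lower in all 3 sets.

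Markers of skeletal muscle were higher beside these collagens in sets 1 and 2 but not as a group in set 3. The 10 muscle markers, all of them in the table, summed to 203.8 to 55527.6 normalised reads in PLKO_CTR and 270.2 to 99914.5 in shTon_CTR, and the log2 ratio of the sum was 0.85, 0.59 and 0.41 in sets 1, 2 and 3. Set 3 held few muscle messages, and its ratio came from desmin (Des), an intermediate filament protein that smooth muscle also makes, at 96.4 in PLKO_CTR and 208 in shTon_CTR. Skeletal actin (Acta1) was at 78.9 against 13.7 in that set. Myh3, an embryonic myosin, was at 18358 and 9347 in PLKO_CTR sets 1 and 2, 0.00 in set 3, and at 43102, 14166 and 6.86 in shTon_CTR. Over 21 tested muscle and myogenic genes the median log2 ratio was 0.59, 0.44 and 0 in sets 1, 2 and 3, while the collagen list had its highest median, 0.57, in set 3. Of 4 markers of annulus and tendon 3 are listed, and the log2 ratio of their sum was 0.42, 0.48 and 0.72 in sets 1, 2 and 3. Most reads of that sum came from the tendon factor Scx, while Thbs4 was at 39.4 against 24.7 in set 3. Of 8 tested genes in a wider list of annulus fibrosus and tendon, 1 was higher (Scx, 0.46, SE 0.16) and 1 lower in all 3 sets. The median of this wider list was 0.65, 0.06 and -1.30 in sets 1, 2 and 3. The part of annulus or muscle cells in the collagen values was not tested in any set.

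Matrix proteases and their inhibitors split by member. Of 23 tested genes 7 were higher and 8 lower in all 3 sets, against 20.6% and 20.2% of all tested genes. None passed in limma, while DESeq2 called 4 higher and 5 lower, against 1.06% and 1.97% of all genes. Adamts2, which trims the amino end of fibrillar procollagens, was at 317, 485 and 387 normalised reads in PLKO_CTR and 724, 981 and 693 in shTon_CTR, with no overlap (1.01, SE 0.13, adjusted p = 0.0559 in limma). Mmp14, a membrane-bound collagenase, was higher in each set as well (0.61, SE 0.17). The secreted collagenase Mmp13 was at 4098, 9355 and 1021 against 2184, 5675 and 416 (-0.97, SE 0.14), and stromelysin Mmp3 at 40938, 19424 and 15988 against 14830.2, 16054 and 5223 (-1.12, SE 0.27). Gelatinase B (Mmp9) was at 223, 114 and 167 against 104, 44.0 and 16.5, with no overlap (-1.90, SE 0.41, or -1.22 when set 3 was left out). The inhibitor Timp1 was lower together with these proteases, at 5797, 11752 and 13544 against 3935, 6822 and 7597 (-0.73, SE 0.13). DESeq2 called Adamts2 and Mmp14 higher and Mmp13, Mmp3, Mmp9 and Timp1 lower. Adamts5, the main aggrecan-cleaving enzyme of cartilage, had log2 ratios that differed in sign among sets.

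**Figure D4:**
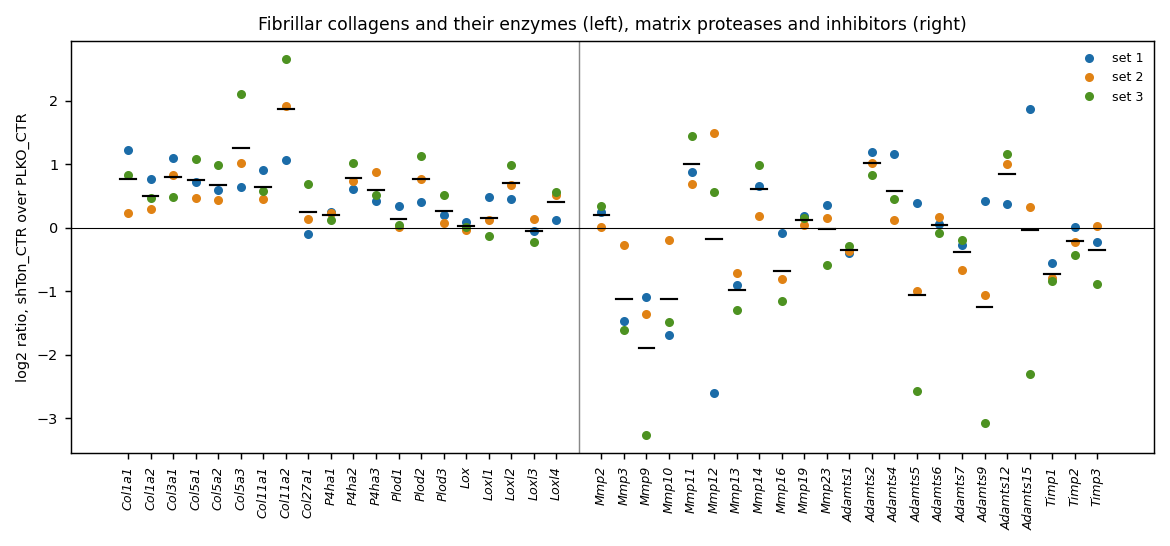
Log2 ratio of shTon_CTR over PLKO_CTR in each set (coloured points) and the fitted log2 fold change (black bar) for 20 genes of fibrillar collagens and their enzymes (left of the grey line) and 23 matrix proteases and inhibitors (right). On the left 16 genes lie above 0 in all 3 sets; on the right 7 lie above and 8 below.

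Among other matrix genes, Fbln2, a glycoprotein of elastic fibres and basement membranes, was at 1970.0, 5601 and 4234 normalised reads in PLKO_CTR and 3578, 12468 and 8778 in shTon_CTR (1.02, SE 0.13, adjusted p = 0.0558 in limma). Osteopontin (Spp1), a secreted adhesive phosphoprotein, was at 36678, 23699 and 45486 against 13468, 13278 and 6949 with no overlap (-1.66, SE 0.33, adjusted p = 0.0931 in limma). DESeq2 called Fbln2 higher and Spp1 lower. Cthrc1, a secreted protein of matrix-producing fibroblasts, was at 35.7, 112 and 32.9 against 101, 298 and 96.0 (1.46, SE 0.19, adjusted p = 0.0559 in limma). Of 15 tested proteoglycan and hyaluronan genes 2 were higher and 2 lower in all 3 sets. In that list Ugdh, which makes the UDP-glucuronic acid from which hyaluronan and glycosaminoglycans are built, was at 8053, 6922 and 7554 against 4476, 5169 and 3354, with no overlap (-0.81, SE 0.17, adjusted p = 0.0933 in limma). Uap1 makes the other hyaluronan precursor, UDP-N-acetylglucosamine. It was at 741, 2040.1 and 923 against 364, 782 and 370.4, and fell by 1.24 on the log2 scale (SE 0.13, adjusted p = 0.0394 in limma). The hyaluronan synthase Has2 was at 2076, 586 and 549 in PLKO_CTR and 2085, 1027 and 2957 in shTon_CTR (1.08, SE 0.39). Its levels were nearly equal in set 1 and differed most in set 3, and it was called by neither limma nor DESeq2. The fitted values of the precursor enzymes and of this synthase had opposite signs, but that of Has2 is uncertain.

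In the IGF system the protease Pappa and an inhibitor of it, Stc1, changed in opposite directions, while the related Stc2 went the way of Pappa. The net balance of Pappa and its inhibitors was not tested. Pappa, a secreted metalloproteinase that frees IGFs by cutting the binding protein IGFBP4, was at 4229.6, 3905 and 323 normalised reads in PLKO_CTR and at 9304, 7811 and 930.0 in shTon_CTR. It rose 2.33-fold (log2 fold change 1.22, SE 0.14, adjusted p = 0.0394 in limma). Stanniocalcin-1 (Stc1), a secreted glycoprotein that binds and inhibits PAPP-A, was at 810.2, 2821 and 202 against 266, 973 and 37.0. It fell by 1.85 on the log2 scale (SE 0.19, adjusted p = 0.0394 in limma). Its relative Stc2 was higher in each set, as Pappa was (0.52, SE 0.18), without passing. Of the 14 tested list members 3 were higher and 4 lower in all 3 sets, against 20.6% and 20.2% of all tested genes. The growth factor receptor Igf1r had a log2 fold change of -0.22 (SE 0.13) with mixed directions.

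In metabolism, Aldh1l2 turns 10-formyltetrahydrofolate into carbon dioxide in mitochondria with the gain of NADPH. It was at 219, 598 and 336 normalised reads in PLKO_CTR and at 523, 1404 and 1206 in shTon_CTR, and rose 2.72-fold (log2 fold change 1.44, SE 0.16, adjusted p = 0.0394 in limma). Aldh1l2 belongs to a list of 32 tested amino acid and one-carbon genes driven by the stress factor ATF4, of which 9 were higher and 5 lower in all 3 sets. Over all tested genes those shares were 20.6% and 20.2%. Sesn2, an inhibitor of mTORC1 signalling and a target of both ATF4 and p53, was at 261, 489 and 366 against 479.7, 872 and 1169 (1.13, SE 0.19, adjusted p = 0.0841 in limma). Fgf21, a stress hormone, was at 11.9, 1.59 and 0.00 against 28.6, 25.1 and 13.7, low levels with no overlap between groups. The pseudokinase Trib3 had a log2 fold change of 1.08 (SE 0.32). The transcriptional cofactor Nupr1 went the other way (-1.03, SE 0.33). DESeq2 called 5 of the list higher and 1 lower, against 1.06% and 1.97% of all genes.

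The ferritin light chain Ftl1, which stores iron with the heavy chain, was at 2181, 706 and 2296 normalised reads in PLKO_CTR and at 884, 309 and 1049 in shTon_CTR. It fell by 1.21 on the log2 scale with close agreement among sets (SE 0.11, adjusted p = 0.0394 in limma). Ferritin light chain has near-identical copies in the rat genome, so this value is uncertain where reads were shared. The heavy chain Fth1 was higher in each set (0.19, SE 0.14) without passing. Heme oxygenase-1 (Hmox1), which frees iron from heme, was lower in each set (-0.51, SE 0.14), and 7 of 13 tested iron and heme genes were lower and 3 higher in all 3 sets. Of 16 tested antioxidant genes driven by NRF2, 7 were lower and 1 higher in all 3 sets. Among these the quinone reductase Nqo1 was at 28839, 3606 and 27931 against 17527, 2586 and 14376 (-0.72, SE 0.15), and Me1, which makes NADPH from malate, at 1388, 602 and 951 against 885, 348 and 373 (-0.93, SE 0.16). The message of NRF2 itself (Nfe2l2) was slightly higher in each set (0.17, SE 0.12). Of 26 tested genes of glycolysis and hypoxia 12 were lower and 5 higher in all 3 sets. The oxygen sensor Egln3 was at 1040.2, 1234 and 1016 against 428, 693 and 494, with no overlap (-1.05, SE 0.13, adjusted p = 0.0558 in limma). The glycolytic enzyme Pgam1 was at 3526, 3432 and 3602 against 2205, 1856 and 1267 (-1.02, SE 0.17). Carbonic anhydrase IX (Car9), a hypoxia gene that NP cells express, was higher in each set (0.65, SE 0.14).

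Sacm1l is a phosphatase of the endoplasmic reticulum and Golgi that removes the phosphate of phosphatidylinositol phosphates. It was at 2648, 2525 and 1821 normalised reads in PLKO_CTR and at 1429, 1061 and 702 in shTon_CTR, with no overlap between groups. It fell by 1.17 on the log2 scale (SE 0.13, adjusted p = 0.0394 in limma). Of 19 tested phosphoinositide enzymes 5 were higher and 4 lower in all 3 sets, against 20.6% and 20.2% of all tested genes. Cyp1b1, a cytochrome P450 that oxidises steroids and polycyclic aromatic compounds, was at 1334, 1676 and 4561 against 622, 846 and 2248. It fell by 1.04 on the log2 scale, near equally in each set (SE 0.11, adjusted p = 0.0394 in limma). The gene listed as AABR06041411.1 was at 5762, 8331 and 23795 against 2729, 3869 and 10365, and fell by 1.13 on the log2 scale (SE 0.13, adjusted p = 0.0394 in limma). Lipoprotein lipase (Lpl), which releases fatty acids from circulating fat, was at 6204, 2065 and 3.29 against 2476, 320.3 and 0.00 (-2.04, SE 0.26, adjusted p = 0.0558 in limma), so its level in set 3 was close to 0 in both groups.

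Lists of growth control genes had small medians, while some members changed more. Of 23 tested p53 targets and growth arrest genes 13 were higher and 2 lower in all 3 sets, and their median was 0.32 on the log2 scale. The cell cycle inhibitor p21 (Cdkn1a) was at 4516, 4587 and 3075 normalised reads in PLKO_CTR and 6556, 6326 and 9181 in shTon_CTR, with no overlap (0.86, SE 0.22, adjusted p = 0.134 in limma), and DESeq2 called it higher. Bbc3, which promotes apoptosis, was at 81.9, 100.3 and 112 against 121, 166 and 359 (0.99, SE 0.25). Of 36 tested DNA replication genes 20 were lower and 0 higher in all 3 sets, with a median of -0.32. Neither limma nor DESeq2 called any of the 36, of which 13 were lower at an unadjusted p under 0.05 in limma, against 9.28% of all tested genes. The median of the mitosis genes differed in sign among sets, at 0.37, -0.46 and -0.80 in sets 1, 2 and 3. Of 23 tested sterol synthesis genes 11 were lower and 0 higher in all 3 sets, and their median was -0.06 in set 1, -0.60 in set 2 and -0.02 in set 3.

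Beside the genes past the threshold, the largest values among well expressed genes (mean of at least 100, the same direction in 3 sets, unadjusted p under 0.01) included these genes. On the higher side were Sorcs2, a sorting receptor of neurons, at 155, 97.9 and 111 normalised reads in PLKO_CTR and 261, 231 and 861 in shTon_CTR (1.64, SE 0.38), and Peg3, an imprinted zinc finger gene, at 431, 175 and 76.7 against 911, 352 and 381 (1.46, SE 0.26). Also there were the adhesion molecule Mcam (1.45), Fam212b (1.44), the cartilage matrix protein Matn4 (1.41), the basement membrane protein Tinagl1 (1.41) and the actin nucleator Fmn1 (1.36). On the lower side were Rnase10, at 141, 430.4 and 24.1 against 46.4, 134 and 1.37 (-2.22, SE 0.38), and the arginine transporter Slc7a2 at 592, 1194 and 891 against 331, 377 and 94.7 (-1.91, SE 0.39). None of these 9 passed in limma. Groups did not overlap for Sorcs2, Mcam, Fmn1 and Slc7a2. Over all tested genes 4.77% were higher and 5.13% lower without overlap, and the rule by which these genes were picked favours such a gap. Much of these values came from set 3: when it was left out, Sorcs2 was at 0.99, Mcam at 0.94, Fmn1 at 0.87, Matn4 at 0.83, Fam212b at 0.82 and Slc7a2 at -1.25.

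Markers of the labelled cell type were present in part. Of 15 markers of nucleus pulposus and notochord 9 are in the table, and the genes of the notochord factors Tbxt, Noto, Shh and Foxa2 and the keratin Krt19 are not listed there. The markers that are listed summed to 7789.9 to 13329.7 normalised reads in PLKO_CTR and 7106.8 to 17291.9 in shTon_CTR, with log2 ratios of 0.38, 0.05 and -0.13 in sets 1, 2 and 3. The ratio of set 1 came from Car3, a carbonic anhydrase that muscle also makes, at 9188 in PLKO_CTR and 13986 in shTon_CTR, while the galectin Lgals3 was at 3729.9 against 2895. In set 3 Car3 was at 48.2 against 12.3. The keratin Krt8 was at 220, 129 and 2399 in PLKO_CTR sets 1, 2 and 3 and at 203, 201 and 2280 in shTon_CTR, so these markers differed strongly among sets. In a wider list of 10 tested genes of this cell type 7 had values below 0, 4 were lower and 0 higher in all 3 sets, and none passed. Of 8 leukocyte and macrophage markers the table lists 1, Cd68, at 19.9 to 136 in PLKO_CTR and 7.54 to 69.1 in shTon_CTR, lower in each set (-1.04, SE 0.27). A wider list of such markers had 1 more tested member, Cd14, which was higher in each set as given above. The part of such cells in the cytokine values was not tested. Of 5 endothelial markers the table lists 1, Tek, at 6.37 to 13.1 in PLKO_CTR and 14.8 to 39.8 in shTon_CTR, higher in each set. Of 5 markers of glia, nerve and fat it lists 2, whose sum had log2 ratios of 0.81, 1.08 and 0.725 in sets 1, 2 and 3, mostly from Tubb3. The part of such cells was not tested either. Of 5 cartilage markers (Sox9, Acan, Col2a1, Col9a1 and Matn3) the table lists 0.

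The same knockdown was made in TNF-a treated cells, in other libraries of the same sets, so the ratios share no library with those above. The Nfat5 value there goes against a label: the library labelled shTon_TNF of set 1 had more Nfat5 than its control, with log2 ratios of 1.41, -1.12 and -1.06 in sets 1, 2 and 3. All 14 genes had the same direction in each of the 3 TNF-a sets as in untreated cells. Both kinds of ratio come from the same 3 sets, so this is not an independent repeat. Over 12357 genes in both tables, 19.5% were lower and 20.5% higher in all 3 TNF-a sets. Of 2495 genes lower in all untreated sets, 1387 were lower in all TNF-a sets too, which is 55.6% of the first and 57.6% of the 2409 in the second. Of 2549 higher ones 1328 were shared, 52.1% of the first and 52.4% of the 2534 in the second. Cxcl2 had log2 ratios of -2.27, -1.83 and -2.53 untreated and -1.58, -2.43 and -2.45 with TNF-a. Il1rn had -1.44, -1.30 and -1.07 untreated and -1.63, -1.20 and -0.81 with TNF-a. The ratio of Cyp1b1 was more even untreated (-1.10, -0.99 and -1.02) than with TNF-a (-0.28, -0.29 and -1.55). The threshold favours genes whose 3 untreated ratios agree. Evenness among untreated sets in genes that passed is therefore in part a result of how they were selected.

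Whether the knockdown acted differently with and without TNF-a was tested in 1 model over the 12 libraries. No gene of 12310 passed (0%, smallest adjusted p = 0.999 in limma), and 219 (1.78%) had an unadjusted p under 0.05. The absence of a call does not show that the effects were equal. The design is small, and the set 1 library with high Nfat5 is among the 12. Without set 1 the smallest adjusted p was 0.248 in limma, and again no gene passed.

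**Figure D5:**
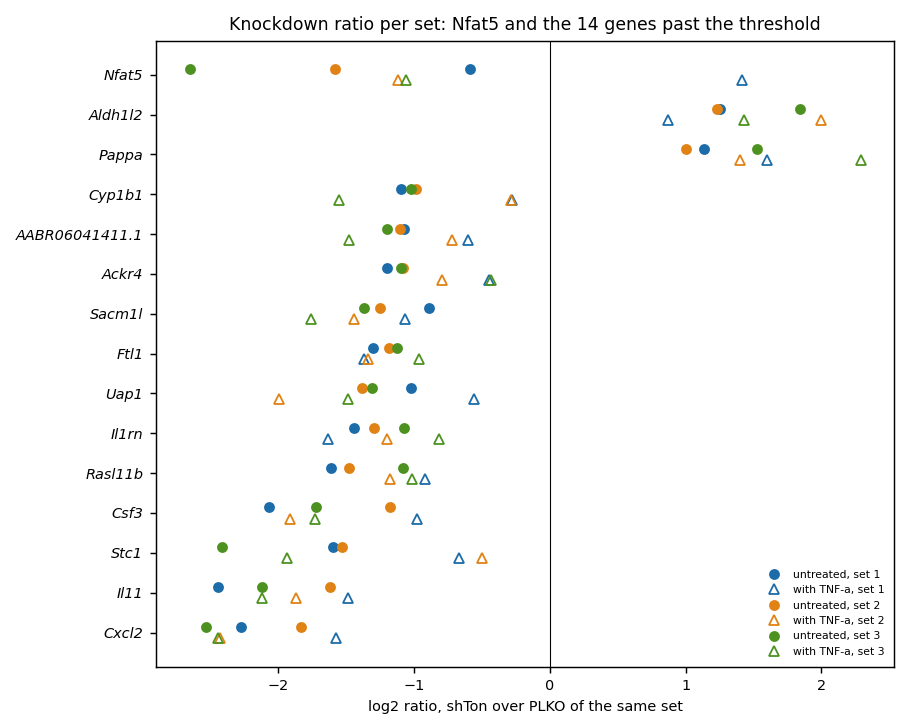
Log2 ratio of shTon over PLKO within each set for Nfat5 and the 14 genes past the threshold, untreated (filled circles) and with TNF-a (open triangles), coloured by set. The 12 genes that fell lie left of 0 and the 2 that rose right of 0 in all 6 ratios, whereas Nfat5 is right of 0 in the TNF-a ratio of set 1 (1.41).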

How the data were processed

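RNA-seq values of 12 libraries were used, 6 of them in the comparison reported. The submitters' processing notes name Novoalign 2.08.01, the rat build rn5 and DESeq2. The counting tool, annotation, strandedness and kit were not given in the sources used here. Deposited columns hold, per the file headers, a normalised signal: read counts of each gene divided by 1 factor per library. Dividing by the smallest step gave whole reads for 100% of values, within 0.001 read. The log2 fold changes and adjusted p-values the authors deposited were not used.

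The fit was limma 3.58.1 (R 4.3.3) on log2(value + 1), which understates changes of low genes, with a mean-variance trend, the set as a block (2 residual degrees of freedom) and a mean of at least 10. SE is limma's moderated standard error. The interaction used jointly scaled reads of 12 libraries. The script was tested on simulated data. DESeq2 1.42.0 and edgeR 4.0.16 on the recovered reads, other pseudocounts, filters, scalings and left-out sets were alternatives.

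Deviations from group means correlated at 0.779 to 0.843 between libraries of the same set and at -0.733 to 0.09 otherwise, so the set numbers pair the libraries. Libraries of a group differed beyond sampling noise (chi-square per degree of freedom 70.3 to 161). Every per-sample column had a sample.

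Genes named are Nfat5, those past the threshold, in each direction the 10 largest log2 fold changes among genes with a mean of at least 100, the same direction in 3 sets and an unadjusted p under 0.01, and list members with the smallest p or a role in the text. Members and lists were chosen with earlier results of these data known. The table held 18 names turned into dates, which were not named.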

Additional observations from a re-analysis of the deposited data

How the results depend on the processing

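The count of 14 genes (2 higher, 12 lower) depended on the fit. Without the replicate block 0 genes passed in limma (504 at an unadjusted p under 0.05), and without the mean-variance trend 0 passed as well (1907 unadjusted). A pseudocount of 0.1 gave 2 genes (0 higher, 2 lower) and a pseudocount of 5 gave 23 (7 higher, 16 lower). All 12 libraries scaled jointly gave 3 (1 higher, 2 lower), of which 2 were among the 14. DESeq2 with the replicate block gave 403 (141 higher, 262 lower) and edgeR 21 (6 higher, 15 lower), each including the 14. TMM scaling, no filter and a mean of at least 100 each gave the same 14, and a robust variance estimate, added after seeing the data, gave 20. Leaving out 1 set gave 12 to 283 genes: 283 without set 1, 12 without set 2 and 220 without set 3. Without set 2 only Cxcl2, Il11, Csf3 and Stc1 remained of the 14, with folds of like size for the others; without set 1 and without set 3 all 14 remained. Nfat5 did not pass in limma (-1.61) but passed in DESeq2 (-1.60), and its value ran from -2.12 to -1.08 over the fits without 1 set. The interaction gave 0 genes under every alternative run, with 29 to 268 genes at an unadjusted p under 0.05. Nfat5, the 14 genes and the genes with the largest values kept their sign under every alternative run. Of the list medians given above, added after seeing the data, the NF-kB subunits (0.01) were at -0.05 to -0.01 over the fits without 1 set and the interleukin-1 family (-0.01) at 0.03 without set 1, -0.34 without set 3, -0.37 without the filter, -0.37 in DESeq2 and -0.30 with 12 libraries. The osmotic list (-0.29) was at -0.00 without set 3. Reads shared between near-identical genes and depth under 10 normalised reads limit what can be read. The causes were not tested.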
